A study of Mus musculus with 10 samples.

Results

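The serpins are a family of proteins built on 1 conserved fold, most of which inhibit serine or cysteine proteases. Members were taken as every gene of the expression table whose symbol begins with *Serpin*, which gave 29 of 20974 genes, and 20 of these had a mean of at least 15 normalized counts in at least 1 genotype and were among the 15603 genes tested. GENCODE M21, a mouse gene annotation on build GRCm38, holds 68 genes with such symbols, and 39 of them were not listed in the table. RNA was sequenced from single mouse embryos at E7.5, a stage of germ layer formation, of the genotypes *Rreb1*+/+ and *Rreb1*-/- (5 embryos each, numbered 2 to 6 in both). *Rreb1* encodes a zinc finger transcription factor, and the comparison asks which transcripts change when it is lost. The study reports mutants from E7.5 onwards as smaller than littermates and delayed in development. A difference in stage therefore cannot be told apart from genotype here. Embryos came from intercrosses of *Rreb1*+/- mice, labelled CD1 in strain, and the study's methods describe a mixed CD-1/129 Sv/C57BL6/C2J stock. The mutant allele lacks most of the coding sequence of exon 6, removed with CRISPR-Cas9, and the study combined data from more than 1 deletion line. Libraries were of polyadenylated RNA from the whole embryo except the parietal endoderm, which was used for genotyping. Wild-type embryos carried no deletion.

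A typical serpin offers a protease a reactive loop as bait. When the loop is cut, the serpin changes shape and traps the protease in a covalent complex. Clade a to g and i members are largely secreted and act in clotting, fibrinolysis, complement and the pericellular space, except those of clade b, which stay inside the cell and guard it against granule and lysosomal proteases. Some members inhibit no protease, such as *Serpinh1*, a collagen chaperone of the endoplasmic reticulum, and *Serpinf1*, pigment epithelium-derived factor. The early conceptus makes many plasma serpins in its visceral endoderm, and several mouse-specific copies of *Serpinb9* are known mainly from the placenta.

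Values are normalized counts, which are read counts divided by 1 size factor per embryo. Depth was 31467767 to 35786876 reads per embryo. Total *Rreb1* was higher in mutants (2644 ± 211 to 5010 ± 718, SD, n = 5 per genotype; limma log2 fold change 0.91, adjusted p = 0.000482), and since the allele lacks only part of the gene this total does not check the genotype. Sex was not balanced. All 5 *Rreb1*+/+ embryos and mutant replicate 2 had *Xist* and a summed count of at most 3.82 for 4 Y-linked genes, whereas mutants 3, 4, 5 and 6 had 5849 to 9171, so that genotype and sex cannot be told apart except through mutant replicate 2. Replicates 5 and 6 of both genotypes also stood apart from replicates 2 to 4 in their blood and endothelial genes. In replicates 5 and 6 the summed primitive erythroid list was 10052 to 14798 in wild types and 4803 to 5059 in mutants. In the other replicates it was 2369 to 2939 in wild types and 1010 to 1163 in mutants. The list was thus also lower in mutants within each set. Results are therefore also given for mutant replicate 2 and for each set of replicates.

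Of the 20 tested serpins, 2 were lower in *Rreb1*-/- embryos, *Serpinb6b* and *Serpina10*, and 1 was higher, *Serpini1* (limma on log2(normalized count + 1), Benjamini-Hochberg adjusted p under 0.05 over all 15603 genes). Over all genes tested, 1.15% were lower and 3.11% were higher by the same rule, and these few members allow no statement that serpins were called more often. The embryos are separate animals, so the p-values cover the spread between embryos. With the replicate number as a block, which compares each mutant with the wild type of its number, 4 serpins were lower and 1 was higher, beside 2.28% and 4.59% of all genes. *Serpinb9* and *Serpinb9b* were the 2 added. At an unadjusted p under 0.05 there were 5 lower and 1 higher, against 8.21% and 9.74% of all genes. With the summed Y-linked count as a covariate no serpin was called by limma, and 107 genes in all were. The median log2 fold change of the 20 was −0.38 and that of all genes −0.016, and 12 of the 20 were negative, against 52.9% of all genes. Of the 20, 2 passed the filter through 1 genotype alone (*Serpinb9c* and *Serpinb9d*).

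**Figure D1:**
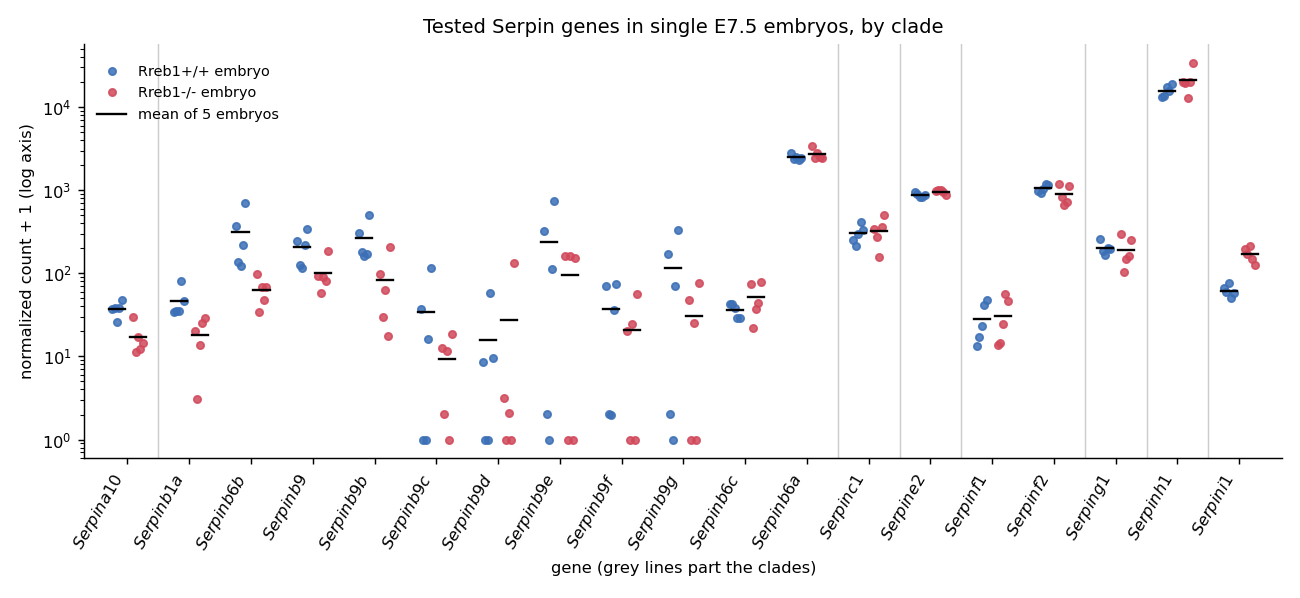
Normalized count + 1 (log axis) of 19 of the 20 tested *Serpin* genes in each of the 10 embryos, with blue points for *Rreb1*+/+, red points for *Rreb1*-/- and a black bar for the mean of the 5 embryos of a genotype. *Serpinh1* is at 12831 or more in every embryo, *Serpini1* is separated between genotypes, and 5 *Serpinb9* copies drop to the bottom of the axis in some embryos of both genotypes.

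Levels between genes were compared as normalized counts per kb of merged exon. *Serpinh1* stood at 6420 ± 970 per kb in *Rreb1*+/+ and 8741 ± 3174 in *Rreb1*-/- embryos. It made up 64.9% to 75.8% of the summed serpin counts in wild types and 69.4% to 83.8% in mutants. *Serpinb6a*, an intracellular inhibitor, was next in rank, at 461 ± 32.0 per kb in wild types. *Serpinf2*, the plasma inhibitor of plasmin, had 454 ± 47.7 per kb there, and these neighbours did not differ beyond their spread. *Serpine2*, protease nexin, followed at 106 ± 7.15 per kb. The other 16 tested members had a mean over all embryos of 7.51 to 85.9 per kb, with *Serpina10* the lowest.

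The 9 members under the filter reached at most 13.8 normalized counts in any embryo. They were *Serpina1a* and *Serpina1b* (antitrypsin), *Serpina5* (protein C inhibitor), *Serpina6* (a corticosteroid carrier), *Serpina7* (a thyroid hormone carrier), *Serpinb5* (maspin), *Serpinb8*, *Serpind1* (heparin cofactor) and *Serpine3*. Their means within a genotype ran from 0.766 to 8.66, too few reads to compare. Angiotensinogen (*Agt*), a serpin by fold under another symbol, was at 0 to 4.65 in every embryo and was not tested.

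Clade i held the serpin with the lowest adjusted p of the family. *Serpini1* (chr3:75557547-75643495, plus strand) encodes neuroserpin, a secreted inhibitor of tissue plasminogen activator. It had 65.2, 58.2, 75.4, 49.0 and 56.5 normalized counts in *Rreb1*+/+ replicates 2 to 6 and 193, 171, 212, 147 and 126 in *Rreb1*-/- replicates 2 to 6. Every mutant lay above every wild type, which was so for 4.24% of all genes tested. The means were 60.9 ± 9.98 and 170 ± 34.5 (SD, n = 5), a 2.79-fold difference, with a log2 fold change of 1.46 ± 0.18 (SE) and an adjusted p of 0.000904 by limma. The exact two-sided permutation test over 252 arrangements gave p = 0.00794, the smallest it can give, which follows from the lack of overlap. The call held without each embryo in turn (adjusted p 0.00104 to 0.00373) and with the replicate block (0.00128). In replicates 2 to 4 alone the log2 fold change was 1.52 (adjusted p = 0.00647), and in replicates 5 and 6 alone 1.35 (adjusted p = 0.0839). Mutant replicate 2, whose Y-linked sum was 2.12, had 193, and with the Y-linked covariate the log2 fold change was 1.63 (adjusted p = 0.0631). *Plat*, the tissue plasminogen activator that neuroserpin inhibits, was also higher in all 5 mutants (711 to 1655) than in all 5 wild types (294 to 551). *Plat* is also among the 16 parietal endoderm genes listed, whose sum was highest in mutant replicates 2 (140019) and 6 (154313). The part of that tissue in the *Plat* values was not tested. Of 14 neural and neuronal genes 3 were called higher (*Tubb3*, *Syt1* and *Map2*) and 0 lower by limma, beside 3.11% and 1.15% of all genes, with a median log2 fold change near 0. Whether the *Serpini1* difference is tied to them was not tested. In whole embryos, fewer cells of a type and less RNA per cell cannot be told apart.

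**Figure D2:**
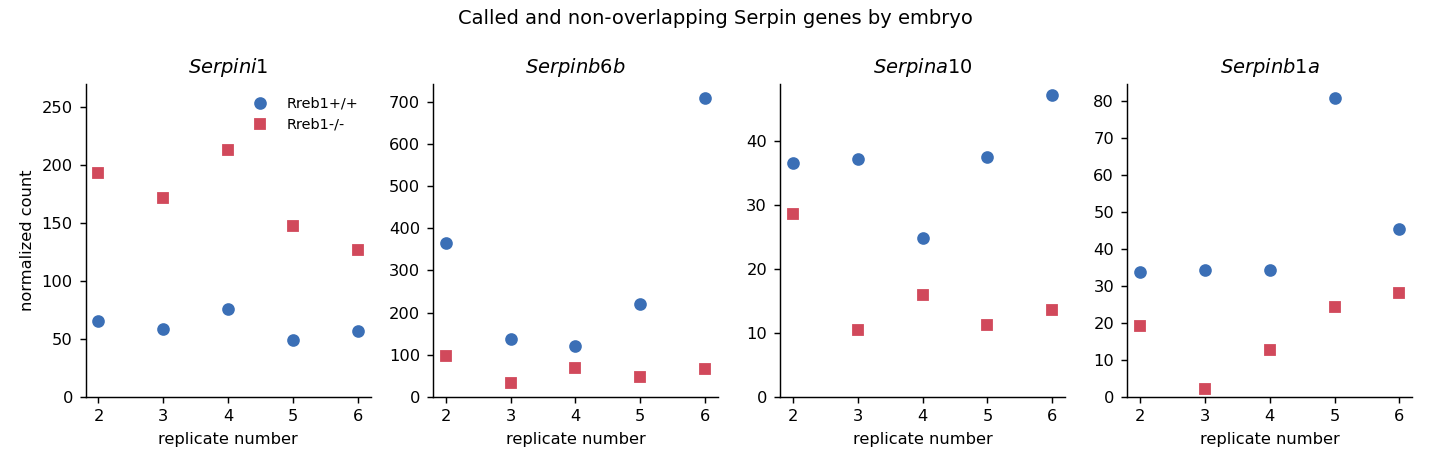
Normalized counts of *Serpini1*, *Serpinb6b*, *Serpina10* and *Serpinb1a* by replicate number, with blue circles for *Rreb1*+/+ and red squares for *Rreb1*-/- embryos, 1 point per embryo and each axis starting at 0. Mutants lie above wild types for *Serpini1* and below for *Serpinb6b* and *Serpinb1a*, while *Serpina10* of mutant replicate 2 (28.6) is above that of wild-type replicate 4 (24.8).

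*Serpina10* was the only tested member of clade a, of which 6 genes were listed out of 29 annotated. It encodes the inhibitor that works with protein Z to block factor Xa and lies at chr12:103614786-103631444 (minus strand). Its normalized counts were 36.5, 37.1, 24.8, 37.5 and 47.1 in *Rreb1*+/+ and 28.6, 10.4, 15.9, 11.2 and 13.6 in *Rreb1*-/- replicates 2 to 6. The means were 36.6 ± 7.91 and 15.9 ± 7.41, and by limma the difference was −1.22 ± 0.29 on the log2 scale (adjusted p = 0.0393, exact permutation p = 0.0159). Mutants 3, 4, 5 and 6, with high Y-linked sums, were below every wild type, but mutant replicate 2 lay inside the wild-type range. With the Y-linked covariate the log2 fold change shrank to −0.21 (adjusted p = 0.798). The call was lost when wild-type replicate 2, 3, 5 or 6 or mutant replicate 3, 4, 5 or 6 was left out (limma adjusted p 0.0719 to 0.104), and was kept without wild-type replicate 4 or mutant replicate 2. It was lost in replicates 2 to 4 alone (−0.90, adjusted p = 0.300) and in replicates 5 and 6 alone (−1.69, adjusted p = 0.129).

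Clade b was the largest group, with 13 listed of 28 annotated. Its 2 listed genes on chromosome 1 were under the filter, and all 11 on chromosome 13 were tested. These 11 lie together at chr13:32842092-34002794, a span of 1.16 Mb that ends 3.78 Mb before the start of *Rreb1* (chr13:37778400-37952005). By limma 1 of the 11 was lower and 0 were higher, beside 1.15% and 3.11% of all genes tested. At an unadjusted p under 0.05, 4 were lower and 0 higher, beside 8.21% and 9.74%. DESeq2 on the recovered reads called 2 of the 11 lower. It called 1213 genes over both directions together, and its share of lower genes was not counted. The replicate block called 3 lower, beside 2.28% of all genes. In sign, 9 of the 11 were negative, against 52.9% of all genes, with a median log2 fold change of −0.96, whereas the 9 tested serpins elsewhere had a median of 0.054 with 3 negative. The 11 are neighbours and partly near-identical copies, and 5 of them were at or near 0 in the same 4 embryos, so they are not 11 separate observations.

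Closely related genes can share reads. The coding sequences of *Serpinb9f* and *Serpinb9g* were 98.7% identical, those of *Serpinb9e* and *Serpinb9g* 95.3%, and those of *Serpinb9d* and *Serpinb9e* 94.8%. Of all 50-base stretches of the longest transcript, 78.7% in *Serpinb9f*, 54.8% in *Serpinb9g*, 30.8% in *Serpinb9d*, 28.4% in *Serpinb9e* and 18.9% in *Serpinb9c* also occurred in another annotated transcript. How reads with more than 1 match were counted is not given in the sources used here, so levels of these 5 copies are uncertain as to which copy they come from. By contrast, the share was 3.12% in *Serpinb6b*, 3.42% in *Serpinb1a*, 0.38% in *Serpinb9* and 0.50% in *Serpinb9b*, although *Serpinb6b* was 86.5% identical to *Serpinb6c* and 81.2% to *Serpinb6a* over the coding sequence.

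The likeness of the *Serpinb9* copies reaches past the transcript. The stretches printed here, from RefSeq (GRCm38.p6), lie just before the annotated start of 4 copies and are shown because all of these were at or near 0 in the same 4 embryos. They are chr13:33192835-33192954 for *Serpinb9d*, chr13:33249488-33249607 for *Serpinb9e*, chr13:33323942-33324061 for *Serpinb9f* and chr13:33484666-33484785 for *Serpinb9g*, all on the plus strand. Capitals mark the letters TGACGT and a run of 19 bases that all 4 share, which ends 11, 11, 26 and 15 bases before the start in that order. Aligned to that of *Serpinb9e*, the 120 bases were 91.7% identical in *Serpinb9d*, 99.2% in *Serpinb9f* and 94.2% in *Serpinb9g*.
Serpinb9d: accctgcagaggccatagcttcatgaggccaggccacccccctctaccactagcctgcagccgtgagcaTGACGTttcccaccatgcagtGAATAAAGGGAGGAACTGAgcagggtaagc
Serpinb9e: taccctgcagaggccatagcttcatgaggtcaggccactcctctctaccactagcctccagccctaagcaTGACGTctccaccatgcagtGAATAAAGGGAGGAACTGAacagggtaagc
Serpinb9f: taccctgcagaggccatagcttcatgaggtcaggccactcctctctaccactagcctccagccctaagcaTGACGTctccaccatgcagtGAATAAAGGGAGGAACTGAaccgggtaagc
Serpinb9g: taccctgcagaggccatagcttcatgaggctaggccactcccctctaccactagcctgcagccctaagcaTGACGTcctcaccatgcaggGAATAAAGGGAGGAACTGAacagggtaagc

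Within the 250 bases before the start, on either strand, TGACGT occurred in 5 of the 24 members with a RefSeq entry, *Serpinb9c*, *Serpinb9d*, *Serpinb9e*, *Serpinb9f* and *Serpinb9g*, and in 6.47% of 32851 promoters. The letters AATAAAG, which lie inside the shared run and do not overlap TGACGT, occurred in *Serpinb9d* to *Serpinb9g* and in *Serpinc1*, and in 4.30% of all promoters. TATAAA occurred in *Serpina7* alone, against 12.4% of all promoters. The motifs were chosen after the sequences were seen, and since the copies are near-identical a match in several of them is not repeated evidence. A match describes letters only.

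*Serpinb6b* (chr13:32965209-32979067, plus strand) was the called member of the cluster. It encodes a cytosolic inhibitor that can block granzyme A. Its normalized counts were 366, 138, 121, 221 and 709 in *Rreb1*+/+ and 96.4, 33.3, 68.0, 47.4 and 66.8 in *Rreb1*-/- replicates 2 to 6. All mutants were below all wild types, as in 2.46% of all genes tested, and the wild types themselves ranged widely, with replicates 2 and 6 highest. The means were 311 ± 243 and 62.4 ± 23.9 (SD, n = 5), a ratio of 4.99. The log2 fold change was −2.07 ± 0.46, with an adjusted p of 0.0286 by limma and 0.00888 with the replicate block. The exact permutation p of 0.00794 follows from the lack of overlap. The call was lost without wild-type replicate 2 (adjusted p = 0.0686) or 5 (0.0603) and without mutant replicate 3 (0.0661), 4 (0.0567) or 5 (0.0592). Its log2 fold change was −1.58 in replicates 2 to 4 alone (adjusted p = 0.149) and −2.79 in replicates 5 and 6 alone (adjusted p = 0.0998). Mutant replicate 2, at 96.4, was below the lowest wild type, and with the Y-linked covariate the log2 fold change was −1.18 (adjusted p = 0.426).

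*Serpinb1a*, an inhibitor of neutrophil elastase at chr13:32842092-32851185 (minus strand), was the other member without overlap. Wild-type replicates 2 to 6 had 33.6, 34.1, 34.4, 80.7 and 45.2 normalized counts and mutants had 19.1, 2.08, 12.7, 24.2 and 28.2. It did not pass the test over all genes (log2 fold change −1.60 ± 0.56, limma adjusted p = 0.154, with the replicate block 0.0579). The exact permutation test gave p = 0.00794, which follows from the lack of overlap and is not separate support. Mutant replicate 2 was below all wild types here too.

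*Serpinb9*, the inhibitor of granzyme B, had 247, 124, 114, 219 and 337 normalized counts in wild-type replicates 2 to 6 and 91.1, 57.2, 88.1, 80.8 and 185 in mutants. Only mutant replicate 6 reached into the wild-type range, and the log2 fold change was −1.04 ± 0.35 (limma adjusted p = 0.147, with the replicate block 0.0150, exact permutation p = 0.0476). *Serpinb9b*, next to it, had 161 to 506 in wild types and 16.7 to 204 in mutants, with mutant replicate 6 again the highest (log2 fold change −2.04 ± 0.60, limma adjusted p = 0.0908). Of its exon sequence 8.30% overlaps *Gm36099* on the opposite strand. *Serpinb9b* was called with the replicate block (adjusted p = 0.00799), by DESeq2 (0.0355) and by limma without mutant replicate 6 (0.0231). *Serpinb9* and *Serpinb9b* were lower in the mutant than in the wild type of the same number for all 5 numbers. So were *Serpinb6b*, *Serpinb1a* and *Serpina10*. The share of all genes for which this holds was not counted, so nothing is read from it.

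*Serpinb6c* and *Serpinb6a*, the cluster members nearest to *Rreb1*, did not follow these. *Serpinb6a*, by level per kb the highest of clade b, had 2780, 2391, 2509, 2333 and 2464 normalized counts in wild types and 3355, 2437, 2800, 2498 and 2431 in mutants, and its log2 fold change was 0.11 ± 0.094 (limma adjusted p = 0.596). Parts of its exon sequence overlap genes on the opposite strand, 14.1% with *Nqo2*, 10.8% with *1110046J04Rik* and 4.46% with *Ripk1*. Whether counting used strand is not given in the sources used here. *Serpinb6c* had 27.8 to 42.2 in wild types and 20.8 to 78.2 in mutants (log2 fold change 0.36 ± 0.34, limma adjusted p = 0.628). The only other listed genes inside the interval were *1110046J04Rik*, which was under the filter, and *Nqo2*, a quinone reductase. *Nqo2* had 694 ± 37.0 in wild types and 589 ± 36.9 in mutants without overlap (log2 fold change −0.24, limma adjusted p = 0.110).

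Seen along the chromosome, 11 tested genes other than serpins start 3 to 6 Mb before *Rreb1*, of which 0 were lower and 2 higher by limma. Of 21 other genes within 3 Mb of the start of *Rreb1*, 1 was called, in the lower direction. On the whole of chromosome 13 without serpins 7.09% of 550 tested genes were called, and on all chromosomes 4.26%.

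**Figure D3:**
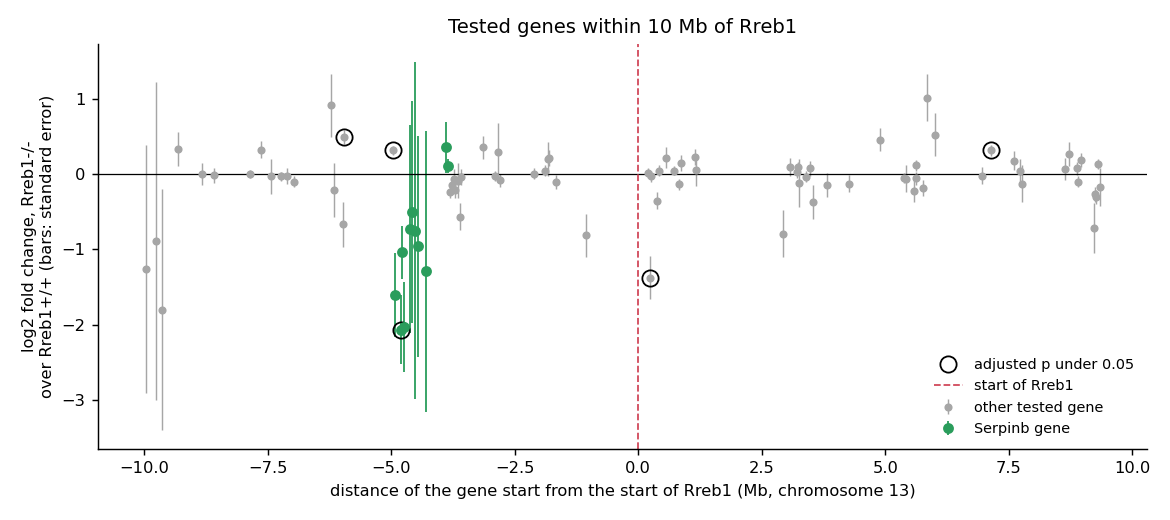
Log2 fold change (*Rreb1*-/- over *Rreb1*+/+) with its standard error for tested genes within 10 Mb of the start of *Rreb1* on chromosome 13, against distance in Mb, with *Serpinb* genes in green, other genes in grey and rings for an adjusted p under 0.05. The green points gather between 3 and 6 Mb before *Rreb1*, 9 of 11 below 0 and 1 ringed, with wide errors for the *Serpinb9* copies.

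The copies *Serpinb9c* to *Serpinb9g* were near 0 in some embryos of both genotypes. Their sum was 604, 3.01, 0.955, 291 and 1277 normalized counts in *Rreb1*+/+ replicates 2 to 6 and 241, 1.04, 221, 0 and 431 in *Rreb1*-/- replicates 2 to 6. Wild-type replicates 3 and 4 and mutant replicates 3 and 5 thus had almost none, and the 3 others of each genotype had at least 221. *Serpinb9e* was the highest of the 5 copies in each of those 6 embryos, at 319, 1.004, 0, 112 and 747 in wild types and 161, 0, 161, 0 and 151 in mutants. With such a spread the genotype difference of *Serpinb9e* was not resolved (log2 fold change −0.75 ± 2.24, limma adjusted p = 0.896), nor was that of the 4 other copies (log2 fold changes of −1.29 to −0.50, adjusted p 0.765 to 0.895). *Serpinb9c* passed the filter through the wild types alone and *Serpinb9d* through the mutants alone. For *Serpinb9d* the sign depended on the scale, since the mean was higher in mutants (26.7 ± 58.0 against 14.8 ± 24.3) while the log2 fold change was −0.50.

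Genes of trophoblast and ectoplacental cone, the outer tissues of the conceptus, also varied among embryos, and those named here and *Serpinb9e* were singled out after their values were seen. *Plac1* had 2709, 859, 594, 1242 and 3252 normalized counts in wild types and 1082, 445, 2178, 647 and 1236 in mutants. The 4 embryos with almost no *Serpinb9c* to *Serpinb9g* were those with the lowest *Plac1*. The sum of the whole trophoblast list did not follow this pattern, since mutant replicate 5, with a copy sum of 0, had 17812, above mutant replicates 2 (12295) and 4 (14467) and wild-type replicate 5 (16143). *Plet1* was lowest in wild-type replicates 3 and 4 (264 and 271) and mutant replicate 5 (208), and mutant replicate 3 had 557. *Serpinb9d* was highest in wild-type replicate 5 (57.6) and mutant replicate 6 (130), the same embryos in which the giant cell hormone gene *Prl3d1* was highest (666 and 766). Of 16 trophoblast genes 13 were listed and 12 tested, with 0 called by limma and a median log2 fold change of −0.24. Their sum was 13588 to 25705 in wild types and 12295 to 21937 in mutants, and *Prl3b1*, *Ctsq* and *Ctsj* were not listed. The part of outer tissue in the values of the cluster was not tested.

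**Figure D4:**
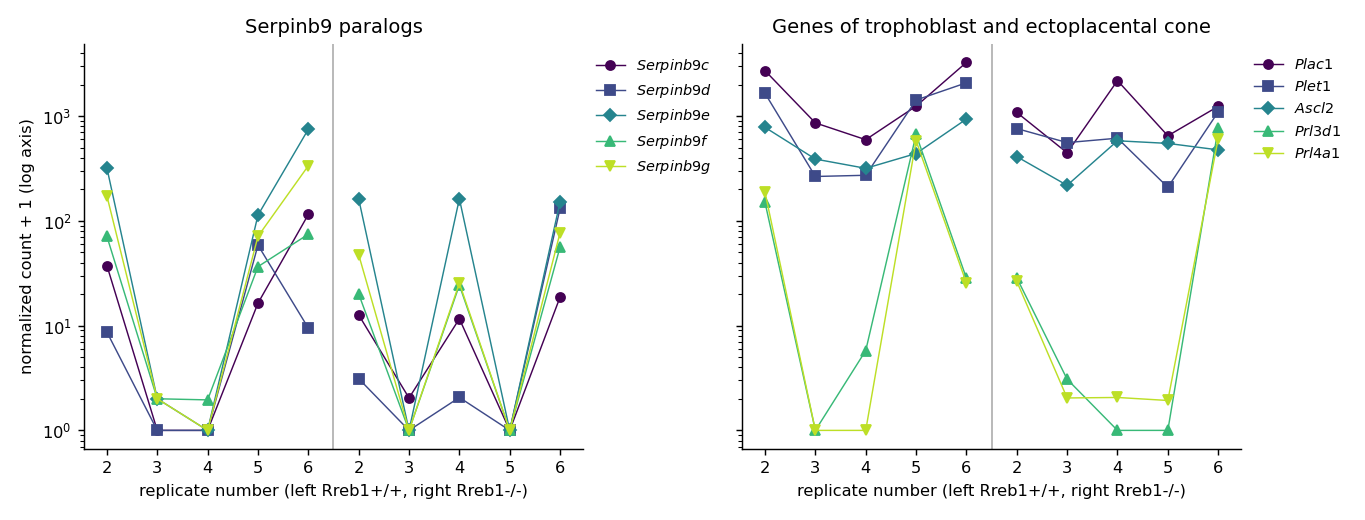
Normalized count + 1 (log axis) of *Serpinb9c* to *Serpinb9g* (left panel) and of *Plac1*, *Plet1*, *Ascl2*, *Prl3d1* and *Prl4a1* (right panel) in each embryo, with *Rreb1*+/+ replicates 2 to 6 left of the grey line and *Rreb1*-/- replicates 2 to 6 right of it, lines joining the values of 1 gene. The *Serpinb9* copies drop to near 0 in wild-type replicates 3 and 4 and mutant replicates 3 and 5, where *Plac1* is at 445 to 859.

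No secreted serpin of clades c, e, f and g was called. *Serpinc1*, antithrombin, had 253, 212, 292, 413 and 333 normalized counts in wild-type replicates 2 to 6 and 337, 272, 154, 360 and 501 in mutants (log2 fold change 0.047 ± 0.28, limma adjusted p = 0.952), and 34.4% of its exon sequence overlaps *Zbtb37* on the opposite strand. *Serping1*, the C1 inhibitor of complement, had 256, 185, 164, 201 and 196 in wild types and 298, 103, 149, 161 and 247 in mutants (log2 fold change −0.15 ± 0.26, limma adjusted p = 0.810). For both genes the mutants ranged more widely than the wild types and covered them.

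Protease nexin and the plasmin inhibitor lay in clades e and f. *Serpine2*, which varied little among embryos, was at 962, 900, 819, 823 and 870 in wild types and 977, 998, 994, 942 and 882 in mutants (log2 fold change 0.13 ± 0.070, limma adjusted p = 0.350, exact permutation p = 0.0556). *Serpinf2* had 982, 925, 1033, 1180 and 1159 in wild types and 1186, 839, 656, 722 and 1109 in mutants (log2 fold change −0.26 ± 0.16, limma adjusted p = 0.437). Mutant replicates 3, 4 and 5 were below all wild types for *Serpinf2*, and mutants 2 and 6 were not.

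*Serpinf1* differed by replicate number rather than genotype. It had 12.5, 16.1, 22.0, 40.3 and 46.2 normalized counts in wild-type replicates 2 to 6 and 12.7, 13.5, 23.4, 54.8 and 44.9 in mutants (genotype log2 fold change 0.054 ± 0.49, limma adjusted p = 0.968). In both genotypes replicates 5 and 6 were above replicates 2 to 4, and these are the embryos with more blood and endothelial transcripts. The difference between the sets was seen in the values and was not tested.

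*Serpinh1*, the most abundant serpin transcript, had 13255, 13475, 17232, 15730 and 18731 normalized counts in wild types and 19986, 19580, 12831, 20301 and 34074 in mutants. Of the mutants 4 were above all wild types, while mutant replicate 4 was below them, and mutant replicate 6 was highest. The log2 fold change was 0.39 ± 0.21 (limma adjusted p = 0.362, exact permutation p = 0.135). The collagens and collagen-folding genes that its product serves, 28 tested, had 0 called by limma in either direction and a median log2 fold change of −0.053, and their sum was 90638 to 110193 in wild types and 86505 to 143824 in mutants, with mutant replicate 6 highest. The 16 parietal endoderm genes share *Col4a1* and *Col4a2* with the collagen list, so the sums of these lists are not separate observations. The parietal endoderm genes summed to 140019 in mutant replicate 2, 154313 in mutant replicate 6 and 74763 to 98087 in the other 8 embryos. The protocol removed that tissue, which makes much basement membrane collagen, and its part in the *Serpinh1* values was not tested.

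**Figure D5:**
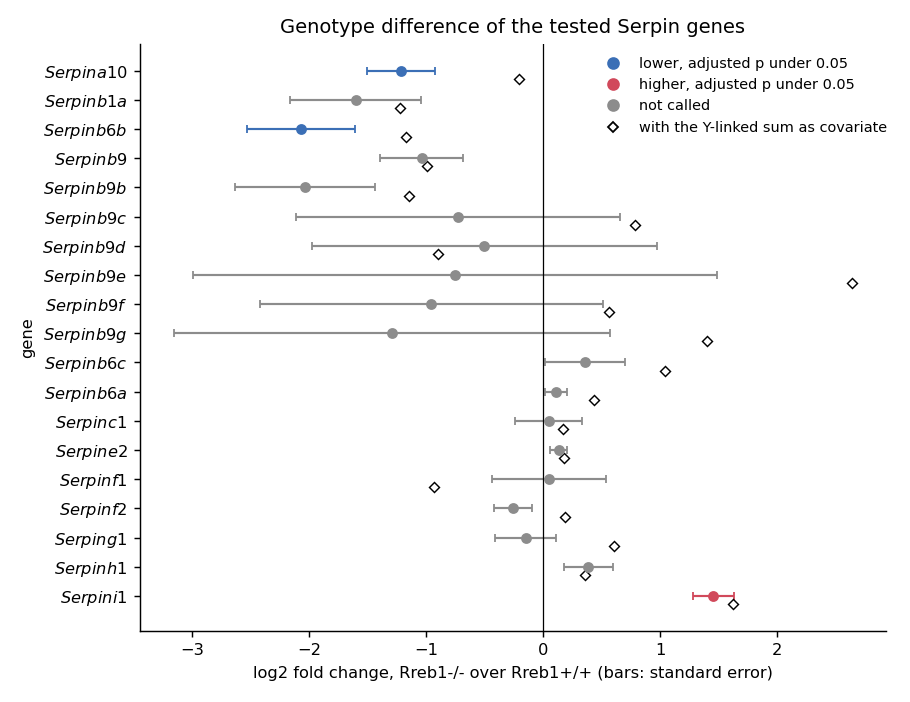
Log2 fold change (*Rreb1*-/- over *Rreb1*+/+) with its standard error for 19 of the 20 tested *Serpin* genes in clade order, in blue where lower, red where higher and grey where not called, with open diamonds for the fit that has the Y-linked sum as a covariate. In that fit *Serpini1* is at 1.63 against 1.46 but is no longer called (adjusted p = 0.0631), *Serpina10* moves to −0.21, and *Serpinb9e* has the widest error.

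The partners of serpins were listed by role. Of 22 proteases of plasma and the cell surface, 16 were tested, 3 were lower and 2 higher by limma, beside 1.15% and 3.11% of all genes tested, with a median log2 fold change of −0.14. *Proc*, protein C, had 36.5 to 98.3 normalized counts in wild types and 10.6 to 29.2 in mutants (limma adjusted p = 0.00497). *Prss8*, prostasin, had 2682 to 3497 in wild types and 2208 to 2471 in mutants (limma adjusted p = 0.0111). *Plat* (limma adjusted p = 0.00490) and the clotting protease *F7* (33.6 to 66.3 against 68.0 to 191, limma adjusted p = 0.0172) were higher, and the remaining lower gene was *Plg*, named outside the rule for naming genes. Each of the 4 named by the rule had no overlap between genotypes, where 2.46% of all genes had all mutants below and 4.24% all above. The genes were chosen for their calls, and nothing is read from this.

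Of 24 granule, lysosomal and cytosolic protease genes, the usual targets of clade b, 12 were listed and 8 tested. *Ctsa*, a lysosomal carboxypeptidase, was higher (6431 ± 553 to 8426 ± 1116, limma adjusted p = 0.0449), 0 were lower and the median log2 fold change was 0.075. *Gzma* and *Gzmb*, whose products *Serpinb6b* and *Serpinb9* can block, were not listed. Of 20 tested inhibitors of other families *Spink2*, a Kazal-type inhibitor, was higher (16.1 ± 4.07 to 56.3 ± 17.6, limma adjusted p = 0.00393) and 0 were lower. Of 19 receptors and cofactors that bind or clear serpins *Sorl1* was higher (1847 ± 265 to 2619 ± 385, limma adjusted p = 0.0325) and 0 were lower, with a median log2 fold change of 0.014. By the same rule 3.11% of all genes tested were higher and 1.15% lower. A single call in lists of this size allows no statement about the lists.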

How the data were processed

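The deposited values are a linear signal. The authors counted reads per gene with HTSeq after STAR alignment and divided them by DESeq size factors (normalized counts). The sources used here name neither the build and gene models nor the strand setting. Gene identifiers placed 20884 of the 20974 genes on GENCODE M21 (GRCm38), and 24 symbols had become dates. In each embryo 100% of values were whole reads times 1 step (tolerance 0.1 read). These recovered reads served for depth, edgeR and DESeq2 only.

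The filter on low values kept 15603 genes whose mean reached 15 in either genotype. The main test was limma 3.58.1 (R 4.3.3, variance trend) on the log2 scale after adding a pseudocount of 1, which understates the fold change of low genes. P-values were adjusted by Benjamini-Hochberg over all genes, with a threshold of 0.05. edgeR 4.0.16 called 674 genes and DESeq2 1.42.0 called 1213, against 665 by limma. The fits were tested on simulated data. Exact permutation tests were two-sided. Alternatives were other pseudocounts, expression filters, TMM and quantile scaling, a threshold of 0.01, the replicate block, a Y-linked covariate, replicate sets and leaving out each embryo.

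Deviations from the genotype mean were correlated between same-numbered embryos of the 2 genotypes (numbers from the sample titles). The correlations were 0.253 to 0.459 over the 5 numbers. Differently numbered embryos were not compared in this way. Replicates 5 and 6 of both genotypes stood apart from replicates 2 to 4, which alone can give such correlations. Pairing by number is therefore not shown, and the replicate block is an alternative only.

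Per-embryo values are given for called and non-overlapping members, the member with the highest level per kb in each clade and genes named by role, and up to 4 called genes of each related list are named. Members and lists were chosen with earlier results of these data known. Values of 1 tested member are not reported here. Other experiments of the study were not analysed here.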

Additional observations from a re-analysis of the deposited data

Results flagged for a closer look

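In 4 of 40 groups of 5 embryos, counting both genotypes of the 20 tested members, 1 embryo stood far from the other 4 by Dixon's criterion. For normally distributed values chance meets it in about 1 of 20 groups. The criterion was applied to counts that were not logged, some of them at 0, so that rate need not hold here. *Serpinb1a* was at 80.7 normalized counts in wild-type replicate 5, where the other wild types had 33.6 to 45.2. *Serpinb9* was at 185 in mutant replicate 6, where the other mutants had 57.2 to 91.1. *Serpinb9d* was at 57.6 in wild-type replicate 5, against 0 to 8.48 in the other wild types, and at 130 in mutant replicate 6, against 0 to 2.12 in the other mutants. Wild-type replicate 5 and mutant replicate 6 were also the embryos with the most *Prl3d1*.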

How the results depend on the processing

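The number of lower serpins was 2 as reported, 3 by DESeq2, 1 with a mean of at least 50 required, 0 at an adjusted p under 0.01, 0 with the Y-linked covariate, 0 in replicates 2 to 4 alone and 0 in replicates 5 and 6 alone, and 0 to 2 when each embryo was left out. That of higher serpins was 1, and 0 with the Y-linked covariate and in replicates 5 and 6 alone. In the chromosome 13 cluster the lower count was 1, 2 by DESeq2, 0 at an adjusted p under 0.01, with the covariate and in either replicate set, and 0 to 2 without each embryo. The replicate block, which takes same-numbered embryos as pairs without this being shown, gave 4 lower serpins. Of these, 3 were in the cluster, and the block changed no other call of a member. *Serpinb9d* was positive by edgeR (0.84) and DESeq2 (0.86). With the Y-linked covariate, where the fold change rests almost wholly on mutant replicate 2, the sign turned for *Serpinb9c* (0.79), *Serpinb9e* (2.64), *Serpinb9f* (0.56), *Serpinb9g* (1.40), *Serpinf1* (−0.94), *Serpinf2* (0.19) and *Serping1* (0.61). In replicates 2 to 4 alone it turned for *Serpinb9e* (1.79), *Serpinb9f* (0.27), *Serpinb9g* (0.60), *Serpinb6c* (−0.084), *Serpinc1* (−0.050) and *Serpinf1* (−0.041), and in replicates 5 and 6 alone for *Serping1* (0.0077). Without single embryos it turned in some fits for *Serpinb9d* (−1.11 to 0.35), *Serpinb9e* (−2.04 to 0.35), *Serpinc1* (−0.13 to 0.29), *Serpinf1* (−0.22 to 0.29) and *Serping1* (−0.33 to 0.047). Members whose sign turned were not called. The cause was not tested. *Serpinb9c* and *Serpinb9d* had no value in replicates 2 to 4 alone, being under the filter there. TMM, quantile scaling, other pseudocounts and a filter on the mean over all embryos gave the reported counts. Few reads limit the 9 serpins under the filter.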
